A study of Mus musculus with 4 samples.

Results

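The 6 Iroquois homeobox genes of the mouse, Irx1 to Irx6, were examined for H3K27me3 in erythro-myeloid progenitors (EMPs). They were taken as all rows of the deposited annotated peak tables that named one of these genes, together with every peak inside the 2 Iroquois clusters extended by 20 kb on either side. This gave 45 of the 10223 peaks of the library made from 500 EMPs and 41 of the 15282 peaks of the library made from 15000 EMPs. Annotated rows named a member for 40 and 36 of these peaks, 5 cluster peaks of each list were named for other genes, and 1 peak of the 15000-EMP list was named for Irx3 although it lay outside the extended cluster. The genes themselves were 6 of 21938 protein-coding genes.

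EMPs are the transient blood progenitors that arise from hemogenic endothelium in the yolk sac. The study used H3K27me3, the repressive histone mark deposited by Ezh2 as part of Polycomb repressive complex 2, to infer which genes Ezh2 may target in these cells. The method was CUT&RUN, in which an antibody directs a nuclease to the marked chromatin and the released DNA fragments are sequenced. Each cell number had 1 H3K27me3 library and 1 IgG library, which records background, so that no group was replicated. The 4 libraries came from yolk sac EMPs of C57BL/6 mice at E10.5, sorted as KIT+ CD16/32+ CD41+ cells negative for lineage markers and SCA1. The genotype label of all 4 read Ezh2fl/fl; Tie2-Cre+/+ with the words wild type beside it. Tie2-Cre acts in endothelium and its progeny, and the study calls these cells WT. Nothing in the labels gives the number of embryos behind a library. The peak lists and tables used here gave positions without heights or read counts, so the depth behind a peak is not known from them. Signal tracks were not used here, and the study's summary gives a lower depth and alignment rate for 500 EMPs. Per the methods, the 500-EMP list was called at the stricter p-value. Cell number was also confounded with amplification cycles (17 for 500 EMPs, 16 for 15000 EMPs), with read length (76 and 59 bp) and with the sequencer, and these cannot be told apart from cell number in anything below. In pooled cells, a mark carried by all cells and a mark carried by a fraction of them cannot be told apart either.

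As background, the Irx genes encode homeodomain transcription factors of the TALE class, whose homeodomain carries an additional 3-residue loop, and they pattern the neural tube, heart and limbs. Mammals hold them in a pair of clusters that arose by duplication, IrxA with Irx1, Irx2 and Irx4 and IrxB with Irx3, Irx5 and Irx6, and the cognate pairs are Irx1 and Irx3, Irx2 and Irx5, and Irx4 and Irx6. Polycomb repressive complex 2 is known to settle on CpG islands, the CpG-dense stretches at which many developmental genes start.

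Stretches of DNA that are named in the results are shown first, with every CpG in capitals and all other bases in lower case. The bases just before the annotated starts of Irx2 and Irx4 are given because a wide 15000-EMP peak stopped within 10 bp of each start. They were taken from RefSeq promoter sequences (GRCm38.p6, the mm10 assembly), in which 3 of the 6 genes had an entry (Irx2, Irx3 and Irx4). The entry of Irx3 is not shown because it lies inside the first exon of the GENCODE gene model. The stretch at Irx2 (chr13:72628570-72628819, plus strand, 250 bp) and the one at Irx4 (chr13:73260247-73260478, plus strand, 232 bp) held 19 CpGs each, a number reached by 19.7% of 32851 promoters in the same table, whose median was 6. The promoter counts were over 250 bases, more than the 232 bp at Irx4.

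Irx2 upstream: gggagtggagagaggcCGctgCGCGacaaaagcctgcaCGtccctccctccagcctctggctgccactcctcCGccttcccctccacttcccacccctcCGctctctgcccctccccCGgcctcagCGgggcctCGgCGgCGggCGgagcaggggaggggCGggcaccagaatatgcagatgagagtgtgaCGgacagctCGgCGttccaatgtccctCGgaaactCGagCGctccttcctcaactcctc

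Irx4 upstream: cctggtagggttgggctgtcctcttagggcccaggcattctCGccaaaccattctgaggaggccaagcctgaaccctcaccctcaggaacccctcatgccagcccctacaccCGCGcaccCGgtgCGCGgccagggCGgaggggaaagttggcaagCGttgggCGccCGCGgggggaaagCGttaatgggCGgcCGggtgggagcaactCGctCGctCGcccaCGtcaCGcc

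Short peaks far from any Irx gene are shown because they are the members on which the libraries met or parted. The peak of 184 bp beside the long noncoding gene D730050B12Rik, between Irx2 and Irx4 (chr13:72817214-72817397), and the peak of 265 bp between Irx3 and Irx5 (chr8:92065345-92065609) lay wholly inside 15000-EMP peaks. The pair of 137-bp peaks between Irx3 and Irx5 (chr8:92114866-92115002) and between Irx5 and Irx6 (chr8:92459890-92460026) overlapped none. All 4 are genomic plus-strand sequence of mm10.

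Irx2 to Irx4, shared: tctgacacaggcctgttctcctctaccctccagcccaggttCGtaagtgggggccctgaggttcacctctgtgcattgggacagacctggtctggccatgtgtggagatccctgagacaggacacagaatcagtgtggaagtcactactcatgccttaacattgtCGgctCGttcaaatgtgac

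Irx3 to Irx5, shared: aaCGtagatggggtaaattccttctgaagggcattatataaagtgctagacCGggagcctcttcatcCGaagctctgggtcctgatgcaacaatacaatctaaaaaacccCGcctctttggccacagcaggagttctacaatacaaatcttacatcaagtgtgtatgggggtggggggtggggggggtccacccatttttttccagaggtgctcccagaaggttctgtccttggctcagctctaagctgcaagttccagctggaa

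Irx3 to Irx5, 500 EMPs alone: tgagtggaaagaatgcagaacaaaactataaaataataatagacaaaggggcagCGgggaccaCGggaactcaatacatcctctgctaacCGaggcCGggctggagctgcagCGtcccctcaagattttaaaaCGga

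Irx5 to Irx6, 500 EMPs alone: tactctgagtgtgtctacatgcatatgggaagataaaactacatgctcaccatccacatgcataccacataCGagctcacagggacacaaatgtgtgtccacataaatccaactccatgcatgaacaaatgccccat

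They held 3, 4, 6 and 1 CpGs in this order, fewer than the promoter stretches above. The lengths are not the same (137 to 265 bp), so these counts are not densities.

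First, it was asked whether all 6 genes carried the mark. Each of the 6 had a peak within 3 kb by the authors' distance in the 500-EMP list and again in the 15000-EMP list, where the share of all protein-coding genes with such a peak was 9.78% and 16.8%. That distance, also used for the gene lists below, runs to the nearer gene end, so peaks at 3′ ends count too. By distance to the annotated gene start, all 6 also had such a peak in both lists. The length covered by peaks within 3 kb on either side of the GENCODE gene start, a window of 6001 bp, was used as the level of the mark, since peak heights were not used here. For Irx1 it was 3635 bp with 500 EMPs and 5178 bp with 15000 EMPs. For Irx2 it was 2492 bp and 5336 bp, and for Irx4 3785 bp and 4542 bp. In the other cluster Irx3 had 1565 bp and 5694 bp, Irx5 had 1379 bp and 2244 bp, and Irx6 had 1639 bp and 5749 bp. All 6 windows were covered for a longer stretch with 15000 EMPs, and the smallest gain was that of Irx4.

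The order of the genes differed between the libraries. With 500 EMPs the IrxA genes led, with Irx4 at 63.1% of the window, Irx1 at 60.6% and Irx2 at 41.5%, before Irx6 (27.3%), Irx3 (26.1%) and Irx5 (23.0%). With 15000 EMPs Irx6 (95.8%) and Irx3 (94.9%) led, followed by Irx2 (88.9%), Irx1 (86.3%), Irx4 (75.7%) and Irx5 (37.4%). Irx5 was last in both. This order belongs to the 3-kb window. Within 10 kb, Irx6 (8.19%) and Irx3 (18.6%) fell below Irx5 (26.1%) with 500 EMPs. With 15000 EMPs Irx2 (86.5%) and Irx1 (70.1%) then led, Irx6 had 51.2% and Irx5 was still last (43.7%). Within the cognate pairs the 15000-EMP values in the 3-kb window were 86.3 and 94.9% for Irx1 and Irx3, 88.9 and 37.4% for Irx2 and Irx5, and 75.7 and 95.8% for Irx4 and Irx6. Within 1 kb the pair farthest apart in the 3-kb window was close, with 66.8% for Irx2 and 62.3% for Irx5, and Irx1 (73.8%) lay below Irx3 (100%). With 1 library of each kind there is no spread against which neighbours in these orders could be set, and no test was possible.

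Among all protein-coding genes, Irx4 ranked 98th and Irx1 107th by covered length with 500 EMPs, where 0.862% of genes had at least 50% of the window covered. With 15000 EMPs Irx6 ranked 182nd and Irx3 238th, and 7.83% of genes reached 50% of the window. Irx5 ranked 687th and 2196th. The coverage of Irx4 rose by a factor of 1.20 from 500 to 15000 EMPs that of Irx1 by 1.42, Irx5 by 1.63, Irx2 by 2.14, Irx6 by 3.51 and Irx3 by 3.64. The median over the 2155 genes covered in both libraries was 4.26. Nothing is read from this difference, because the factors are bounded by the length of the window, which leaves less room to genes with much coverage at 500 EMPs.

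**Figure D1:**
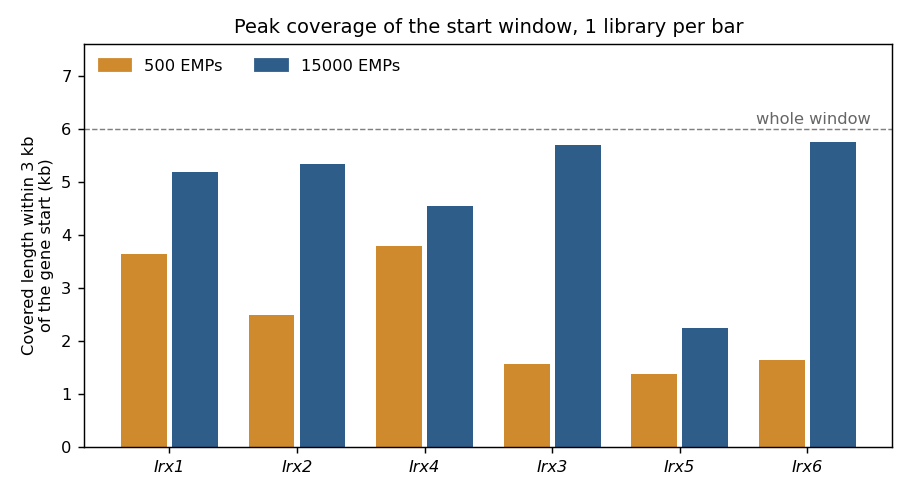
Length covered by H3K27me3 peaks within 3 kb on either side of each gene start (y axis, kb) for the 3 IrxA genes on the left and the 3 IrxB genes on the right (x axis), with 1 library per bar and hence no error bars. The 500-EMP bars run from 1379 to 3785 bp and are highest at Irx1 and Irx4, and the 15000-EMP bars run from 2244 bp at Irx5 to 5749 bp at Irx6; the dashed line marks the whole window.

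Next, the extent of the mark was measured. Joining 15000-EMP peaks that lay within 3 kb of each other gave 1 domain around each gene. The domain of Irx2 was the widest, 22581 bp on chromosome 13 (72620862 to 72643442), with 9315 bp covered with 500 EMPs and 21111 bp with 15000 EMPs. It held a single peak of 12073 bp, the widest at any Irx gene and the 110th widest of that list. The same stretch was broken into 8 peaks in the 500-EMP list. The domain of Irx4 spanned 19930 bp (73255452 to 73275381), with 11834 and 16576 bp covered, and that of Irx1 spanned 15363 bp (71955530 to 71970892), with 6893 and 14030 bp covered.

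The domains of the IrxB genes on chromosome 8 were narrower. Irx3 had 13256 bp (91796365 to 91809620), of which 3711 bp were covered with 500 EMPs and 12949 bp with 15000 EMPs. Irx5 had 12190 bp (92357379 to 92369568), with 5222 and 10350 bp covered. Irx6 had 11306 bp (92670604 to 92681909), with 1639 and 10232 bp covered. At Irx6 only 16.0% of the bases covered with 15000 EMPs were also covered with 500 EMPs, the lowest share of the 6 domains, and at Irx4 68.8% were, the highest.

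Except at Irx5, the 15000-EMP domain ran past both ends of the gene. It reached 7169 bp before the start of Irx1, 7958 bp before Irx2, 7553 bp before Irx3, 5027 bp before Irx4 and 3684 bp before Irx6, and it passed the 3′ end by 953 bp (Irx6) to 9244 bp (Irx2). At Irx5 it began 246 bp before the start and stopped 6718 bp short of the end of the gene. That gene model is long because of a transcript of 18662 bp, whereas the shorter coding transcript spans 3708 bp and was covered for 49.6% with 500 EMPs and 59.5% with 15000 EMPs.

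Before Irx5 lies Crnde, a noncoding gene that runs in the opposite direction. A CpG island of 1500 bp (chr8:92355556-92357055, CpG observed over expected 0.808) holds the start of Crnde and ends 570 bp before Irx5. CpG islands were called here from the genome sequence, and observed over expected is the number of CpGs relative to that expected from the C and G content. No base of this island was covered in either library, and neither was any base of the body of Crnde, whose start lay 1259 bp from the nearest 15000-EMP peak. The next island, of 1660 bp across the start of Irx5, was covered for 35 bp with 500 EMPs and for 1452 bp with 15000 EMPs. Of the 6 genes, Irx5 thus had the mark on the transcribed side alone with 500 EMPs, with 0 bp before the start within 3 kb against 1379 bp after it, and nearly so with 15000 EMPs, with 247 bp against 1998 bp. Irx3 was the reverse with 500 EMPs, with 1565 bp before the start and 0 bp after it.

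**Figure D2:**
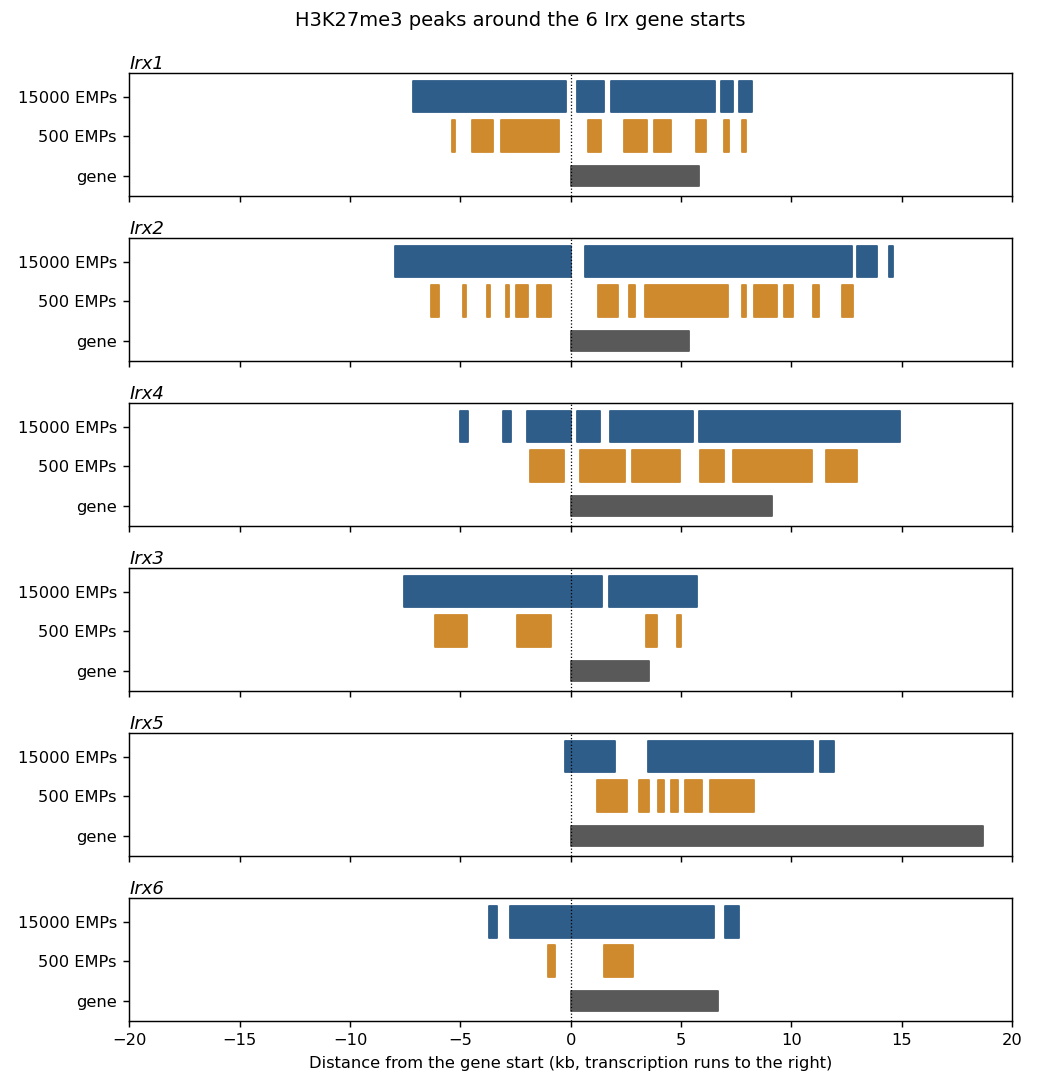
Peaks around the 6 gene starts, with distance from the start in kb on the x axis and transcription running to the right; blue bars are 15000-EMP peaks, orange bars 500-EMP peaks, grey bars the gene and the dotted line its start. The 15000-EMP peaks lie across the starts of Irx3, Irx5 and Irx6, stop 227 bp from that of Irx1 and 10 and 5 bp from those of Irx2 and Irx4, and extend 3684 to 7958 bp upstream except at Irx5, where they extend 246 bp. No 500-EMP peak lies on a start.

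The gene start itself was then examined. With 500 EMPs 0 of 6 start bases lay in a peak (1.4% of all protein-coding genes had the start in a peak), and with 15000 EMPs 3 of 6 did (8.63% of all genes). The 3 covered starts were those of the IrxB genes Irx3, Irx5 and Irx6, and the 3 uncovered starts those of the IrxA genes. The split holds for the outermost start and the peaks as deposited. With any annotated transcript start, 2 genes with 500 EMPs and 5 with 15000 EMPs (all but Irx4) had a start in a peak, and after joining peaks within 1 kb the counts were 1 and 6. At Irx1 the 15000-EMP peaks left a gap of 525 bp around the start (71963425 to 71963949). At Irx2 the gap was 665 bp (72628811 to 72629475) and at Irx4 293 bp (73260475 to 73260767). The starts of Irx2 and Irx4 lay 10 and 5 bp from the upstream peak, so that the gap began at the start and ran into the gene. It held 242 bp of untranslated exon, 252 bp of coding exon and 162 bp of intron at Irx2 and 289 bp of untranslated exon at Irx4. At Irx1 it held 226 bp before the gene, 235 bp of untranslated exon and 64 bp of coding exon. An uncovered start between peaks was common: of 2622 genes with a 15000-EMP peak within 3 kb on both sides of the start, 27.8% had a start outside any peak, with a median gap of 724 bp. With 500 EMPs 72.2% of 1104 such genes did, with a median gap of 1433 bp.

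The base composition of the gaps is given as a description. The 15000-EMP domains held 17 gaps in all. The 3 at the starts had a G + C content of 74.4 to 77.1% and a CpG observed over expected of 0.933 to 1.02. The other 14 had 41.3 to 62.5% and 0.0402 to 0.861, without overlap in either measure. All 6 starts lie in CpG islands, so a rich composition at a start was given in advance. The islands at the covered starts had a G + C content of 66.6% (Irx3), 66.2% (Irx5) and 63.8% (Irx6), and those at the uncovered starts 68.7% (Irx1), 68.5% (Irx2) and 67.4% (Irx4). The part of composition in the missing coverage was not tested.

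**Figure D3:**
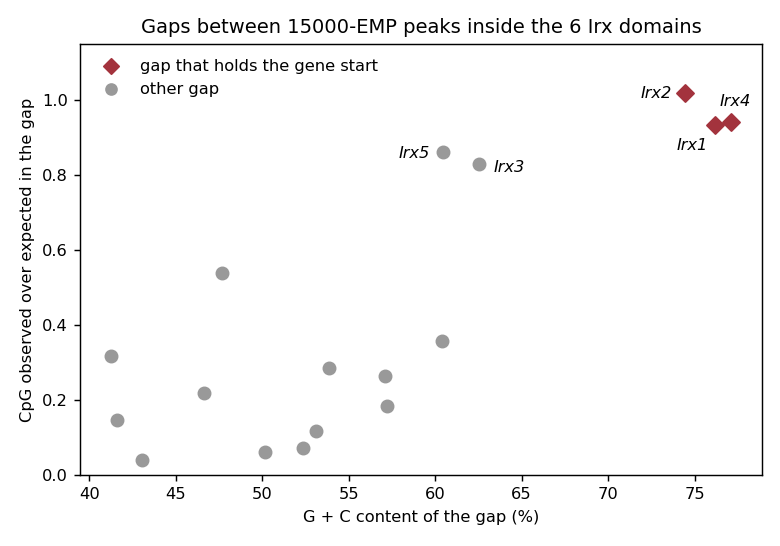
The 17 gaps between 15000-EMP peaks inside the 6 Irx domains, by G + C content (x axis, %) and CpG observed over expected (y axis); red diamonds hold a gene start and grey circles do not. The 3 start gaps, at Irx1, Irx2 and Irx4, lie at 74.4 to 77.1% G + C, above all other gaps, and the gaps inside Irx5 and Irx3 come next by CpG content.

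With 500 EMPs the bases nearest to the starts were mostly uncovered, and peaks lay within 3 kb on both sides of the start at 4 of the 6 genes (not Irx3 and Irx5). Within 0.5 kb of the start no base was covered at Irx1, Irx2, Irx3, Irx5 or Irx6, and 282 bp were covered at Irx4. Taken over the 6 genes, 4.70% of this core was covered against 47.4% of the rest of the window. With 15000 EMPs the core was covered for 73.7% and the rest for 81.1%. Over the 2155 protein-coding genes covered in both libraries, the core had 16.4% and the rest 20.5% with 500 EMPs, and 69.9% and 63.6% with 15000 EMPs. The difference between core and rest with 500 EMPs was thus wider at the Irx genes than over these genes, as a description without a test.

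The CpG islands of the domains, which share bases with the core above, were also examined. A CpG island held the start of each of the 6 genes. With 500 EMPs these islands were covered for 0 of 1750 bp at Irx2, 0 of 2790 bp at Irx3 and 0 of 870 bp at Irx6, for 35 of 1660 bp at Irx5, for 308 of 1490 bp at Irx1 and for 446 of 1080 bp at Irx4. With 15000 EMPs the values were 1085 bp at Irx2, 2483 bp at Irx3, 870 bp at Irx6, 1452 bp at Irx5, 965 bp at Irx1 and 787 bp at Irx4. Summed over the domains, the start islands were covered for 8.37% with 500 EMPs, whereas the 22 other islands were covered for 47.1% and bases outside islands for 43.8%. With 15000 EMPs the 3 shares were 81.0, 91.2 and 91.1%, but the domains are joined 15000-EMP peaks, so high shares in that list were given in advance. The start islands had a G + C content of 67.1% against 58.6% in the other islands and 48.7% outside, and whether G + C content or depth had a part in the 500-EMP values was not tested.

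Inside the genes, coding exons were covered for 80.4 to 100% with 15000 EMPs, with the exception of Irx5 at 28.2%. A gap of 1502 bp in Irx5 (chr8:92359623-92361124) held 1120 of its 1562 coding bases. Here the 500-EMP list had more: its peaks covered 948 bp of this gap and 41.7% of the coding bases of Irx5. The CpG island in this stretch, 1420 bp long, was covered for 866 bp with 500 EMPs and for 117 bp with 15000 EMPs. A gap of 422 bp in an intron of Irx4 (73261822 to 73262243) was likewise covered along its whole length with 500 EMPs. Conversely, no coding base of Irx3 was covered with 500 EMPs and 80.4% were with 15000 EMPs. At Irx3 the 500-EMP peaks left 4311 bp uncovered around the start, which took in most of the gene.

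The clusters as a whole were then compared. Both had far more coverage than the genome and far less than the Hox clusters, in which the genes lie close together. The extended IrxA cluster (chr13:71937921-73289608, 1.35 Mb) held 30 peaks and 28.2 kb of covered sequence with 500 EMPs and 18 peaks and 54.6 kb with 15000 EMPs. The extended IrxB cluster (chr8:91778525-92700956, 0.922 Mb) held 15 peaks and 11.1 kb with 500 EMPs and 22 peaks and 44.9 kb with 15000 EMPs. These were 2.09 and 4.04% of the IrxA region and 1.20 and 4.87% of the IrxB region, against 0.218 and 0.879% of the genome. In the 4 Hox clusters, extended in the same way, 35.1 to 71.7% and 58.3 to 94.0% was covered.

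Covered length rose 1.93-fold at IrxA and 4.04-fold at IrxB, and 4.03-fold over the genome. Of the bases covered with 15000 EMPs, 50.8% at IrxA, 22.0% at IrxB and 23.1% over the genome were also covered with 500 EMPs. In the Hox clusters the share was 56.7 to 74.0%. The share and the factor are measures of the same lengths and depend on how peaks were joined: with peaks within 3 kb joined, 47.5 kb with 500 EMPs and 61.0 kb with 15000 EMPs were covered at IrxA, and 18.4 and 51.0 kb at IrxB.

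**Figure D4:**
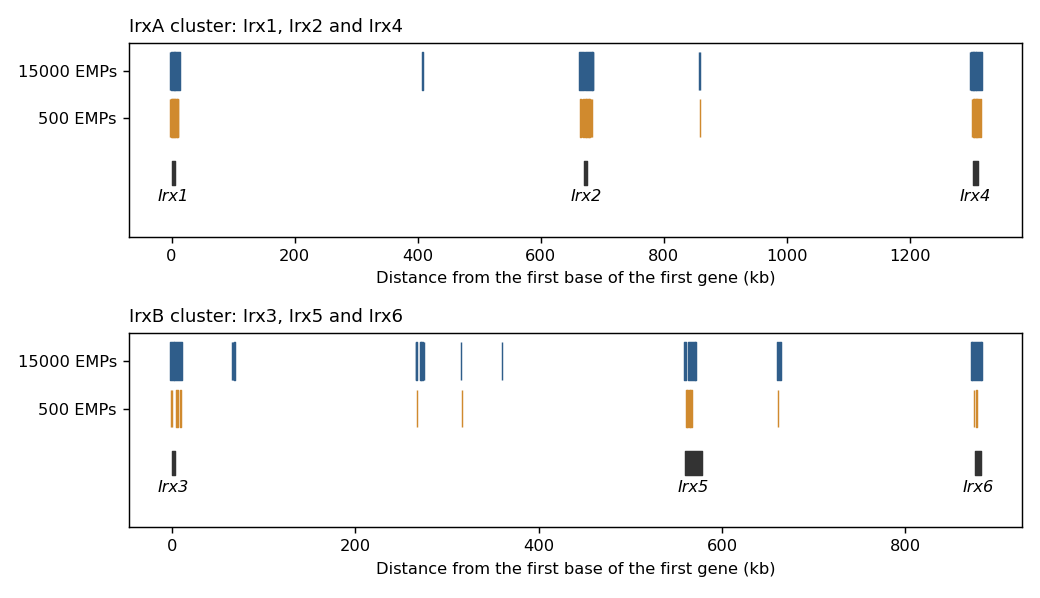
Position of all peaks along the IrxA cluster (top) and the IrxB cluster (bottom), in kb from the first base of the first gene on the x axis, with 15000-EMP peaks in blue, 500-EMP peaks in orange and the Irx genes in dark grey. Peaks gather at the 6 genes, and between them lie 3 peaks of the IrxA cluster and 14 of the IrxB cluster in the 15000-EMP list.

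Most covered sequence lay at the genes. Of the covered length, 99.3% at IrxA and 95.1% at IrxB lay within 20 kb of an Irx gene with 500 EMPs, in 10.4 and 16.1% of the regions' length. With 15000 EMPs the shares were 94.8% at IrxA and 74.7% at IrxB. The long intervals between the genes were mostly without peaks. Between Irx1 and Irx2, 665 kb apart, 0.853% was covered with 500 EMPs and 2.38% with 15000 EMPs. Between Irx2 and Irx4 the values were 0.938 and 2.08%, between Irx3 and Irx5 0.614 and 2.74%, and between Irx5 and Irx6 0.152 and 2.37%. The longest stretch without a 15000-EMP peak was 438 kb, between Irx2 and Irx4.

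Peaks more than 20 kb from any Irx gene formed 8 groups, counting the Irx3-named peak outside the extended cluster. The group of greatest covered length lay between Irx3 and Irx5, 262 kb from the start of Irx3 (chr8:92064344-92073637). It held 5 peaks and 4812 bp with 15000 EMPs and 1 peak of 265 bp, printed above, with 500 EMPs. The next lay 101 kb from the start of Irx5, toward Irx6 (chr8:92458448-92462919), with 3 peaks and 3983 bp with 15000 EMPs. It was the only distal group on a CpG island, one of 1065 bp with a CpG observed over expected of 1.01, of which 813 bp were covered with 15000 EMPs and 0 bp with 500 EMPs. The 137-bp 500-EMP peak printed above fell between its peaks, 28 bp from the nearest one.

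The remaining groups were smaller, and several lay at starts of noncoding genes. On chromosome 13 a group of 1919 bp with 15000 EMPs covered the start of D730050B12Rik (72815736 to 72817916), where 184 bp were covered with 500 EMPs. On chromosome 8 a group of 4 peaks and 1677 bp covered the start of Gm28511 (91863813 to 91866992) and a peak of 621 bp the start of Gm45332 (92157958 to 92158578), both with 15000 EMPs alone. A peak of 919 bp between Irx1 and Irx2 (chr13:72365202-72366120) and the Irx3-named peak of 1044 bp (chr8:91710609-91711652), 90.4 kb from the start of Irx3 on its 3′ side, were also found with 15000 EMPs alone. At the last group a 15000-EMP peak of 293 bp (92113521 to 92113813) and the other 137-bp 500-EMP peak printed above lay 1053 bp apart without touching. Width of 137 bp is the smallest in the 500-EMP list, and 5 of its 1759 peaks of that width lay in the clusters.

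By shared bases, the lists overlapped unevenly. Of the 45 cluster peaks found with 500 EMPs, 43 shared 1 bp or more with a 15000-EMP peak (95.6%, 95% Wilson interval 85.2 to 98.8%, counting error alone). Over the whole 500-EMP list 91.2% did. At IrxA all 30 did, and at IrxB 13 of 15. Of the 40 cluster peaks found with 15000 EMPs, 18 overlapped a 500-EMP peak (45%, 30.7 to 60.2%), 12 of 18 at IrxA and 6 of 22 at IrxB, against 32.2% of the whole 15000-EMP list. The lists as a whole were thus uneven in the same direction. When 50% of the peak itself had to be shared, 91.1% of the 500-EMP and 10% of the 15000-EMP cluster peaks qualified. When 50% of both peaks had to be shared, 6.67% and 7.5% did. This last rule is the same from either list, so near-equal shares were given in advance and nothing is read from them. Both 95% intervals take peaks as independent. Up to 8 peaks of the 500-EMP list lay in a single 15000-EMP peak, so the intervals are likely too narrow. In bases, the 37617 bp covered in both lists were 95.6% of the 500-EMP coverage and 37.8% of the 15000-EMP coverage.

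Sequence composition, which took no part in choosing the members, was set beside coverage. In both clusters together, CpG observed over expected was 0.407 inside and 0.187 outside 500-EMP peaks, and 0.436 inside and 0.177 outside 15000-EMP peaks. The G + C content was 51.2% inside and 44.6% outside 15000-EMP peaks. In windows of 500 bp the median CpG observed over expected was 0.361 in the 199 windows covered for at least 50% with 15000 EMPs and 0.154 in the 4317 windows without coverage. Taken per peak, the median was 0.439 in the clusters and 0.280 over all peaks of the genome with 500 EMPs, and 0.342 and 0.283 with 15000 EMPs. Most covered length lay within 20 kb of an Irx gene, so inside against outside largely sets gene loci beside the sequence between them. Inside the domains, the start islands were covered for 8.37% with 500 EMPs, against 43.8% of the bases outside islands.

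**Figure D5:**
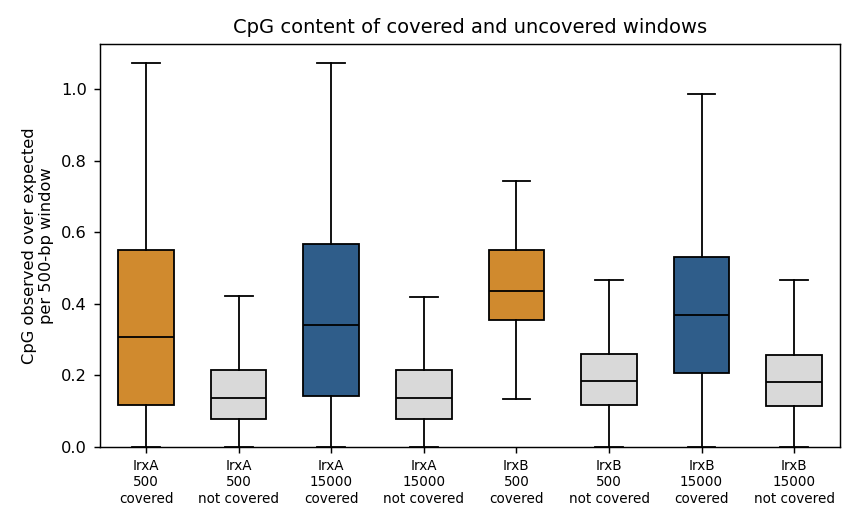
CpG observed over expected in 500-bp windows (y axis) of each cluster, for windows covered for at least 50% by peaks (coloured) and windows without any covered base (light grey), in each library; boxes span the quartiles with the median as a line, whiskers reach the last value within 1.5 times the box height and points beyond are left out. In all 4 pairs the covered windows have the higher median, for example 0.340 against 0.137 at IrxA and 0.369 against 0.180 at IrxB with 15000 EMPs.

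Of the 36 CpG islands in the clusters, 20 overlapped a peak with 500 EMPs and 29 with 15000 EMPs, where 7.89 and 16.8% of the 29673 islands of the genome did. All 28 islands inside the domains, which were themselves drawn from the 15000-EMP list, overlapped a peak of that list. Of the 8 islands elsewhere in the clusters, 0 overlapped a 500-EMP peak and 1 a 15000-EMP peak. The uncovered island nearest to an Irx gene was that of Crnde beside Irx5.

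Other genes in and around the clusters were examined for covered bases in the gene body, a share not computed over all annotated genes. Of 12 other annotated genes in the extended IrxA cluster, 3 had a covered base with 500 EMPs and 4 with 15000 EMPs, and of 15 in the extended IrxB cluster 1 and 4 did. Those with the most coverage overlapped an Irx domain. Gm20554, a noncoding gene beside Irx2, was covered for 49.5% with 500 EMPs and for 100% with 15000 EMPs. Gm48000, beyond the end of Irx4, was covered for 40.6 and 100%, and its start lay in a peak of both lists. Irx3os, the antisense gene of Irx3, was covered for 32.8 and 96.8%, and Gm45505, antisense to the end of Irx6, for 0 and 62.3%. The protein-coding neighbours outside had no covered base in the gene body, namely Ndufs6 (a subunit of respiratory complex I) beside IrxA, and Fto (an RNA demethylase), Rpgrip1l (a ciliary protein) and Mmp2 (a matrix metalloprotease) around IrxB. Adamts16, a secreted metalloprotease gene 1116 kb from the IrxA cluster, was the exception, with the start in a 15000-EMP peak.

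Relatives of the Irx genes were looked at next. Among 12 other TALE homeobox genes, the 500-EMP list had a peak within 3 kb of 3 (Meis2, Pknox2 and Mkx) and the 15000-EMP list of 4 (Meis3 in addition), that is 25 and 33.3%, where the shares of all protein-coding genes were 9.78 and 16.8%. Mkx, the Mohawk gene and a close relative of the Irx family, had 30.3% of its start window covered with 500 EMPs and 100% with 15000 EMPs. The other 8, namely Meis1, the 4 Pbx genes, Pknox1, Tgif1 and Tgif2, had 0% in both. The median covered length of the 12 was 0 bp in both libraries, against 2066 and 5257 bp for the Irx genes.

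The genes whose pattern of coverage was most like that of each Irx gene were found by the overlap of covered bases in a strand-oriented window of 10 kb on either side of the start, given as the shared part of the bases covered in either gene and averaged over the 2 libraries. The most similar gene was Insm1 for Irx1 (0.653), Lhx2 for Irx2 (0.693), Gsc for Irx3 (0.624), Gata4 for Irx4 (0.748), Islr2 for Irx5 (0.701) and Galnt16 for Irx6 (0.674), among 21932 genes. The closest members were Irx2 and Irx4 at 0.564. The number of other genes closer than the nearest member was 64 for Irx1, 104 for Irx2, 21 for Irx3, 50 for Irx4, 40 for Irx5 and 464 for Irx6. No cognate pair was mutually closest. With windows of 5 kb the most similar gene was another one for all 6, so the match depended on the window.

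The labelled cell type was set beside marker genes. Because H3K27me3 lies on silent genes, genes that the sorted cells express bear on the label. Of 10 EMP markers, among them Kit, Itga2b (CD41), Runx1 and Spi1, 0 had a peak within 3 kb in either library, where 9.78 and 16.8% of all protein-coding genes did, so that a list of this size would hold few marked genes in any case. Of 6 endothelial markers 1 had a peak with 500 EMPs (Sox17) and 3 with 15000 EMPs (Sox17, Sox18 and Kdr), of 5 mesenchymal markers 4 in both (all but Col1a2), and of 5 visceral endoderm markers 1 in both (Foxa2). Expression values were not used here, and transcript levels of the Irx genes were not analysed.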

How the data were processed

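H3K27me3 CUT&RUN was analysed in 2 libraries, from 500 and from 15000 EMPs, and the 2 IgG libraries entered through the authors' peak calling alone. The authors used Bowtie2 2.2.1 (genome build mm10) for alignment and MACS2 2.1.2 in broad mode for peaks, per library, with a more lenient p-value for 15000 EMPs; since the commands in their summary pair thresholds and libraries the other way round, the lists were taken as labelled. The submitters' notes also name SAMtools 1.9 and deepTools 3.5.1. The deposited values are peak coordinates and, in tables annotated by the authors with ChIPpeakAnno, distances to the nearer gene end (start or 3′ end), in bp. Table ends lay 1 bp beyond the list ends in all rows and were corrected.

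Coordinates were compared with GENCODE gene models (the M21 release) and the GRCm38.p6 genome with Python 3.11.15 and NumPy 2.4.6, on interval code tested on simulated data. Where a gene has several starts, the outermost was used. Islands were stretches of at least 500 bp in which windows of 200 bp had a G + C content of at least 50% and a CpG observed over expected of at least 0.6. Members and lists were chosen with earlier results of these data known. Genes named were all members, the most similar gene of each, the TALE and marker lists, and the neighbours. With 1 library per group no test between libraries was made. Distance limits, windows, joining, overlap and the smallest peaks were varied. Intervals cover counting error only and take peaks as independent.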

Additional observations from a re-analysis of the deposited data

How the results depend on the processing

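Of 114 alternatives to 40 values, 86 stayed close to the value reported, 28 moved and 0 reversed; all 6 genes had a peak at a limit of 10 kb and without the smallest peaks, and at 1 kb 5 with 500 EMPs (not Irx5, 1171 bp away) and 6 with 15000 EMPs did. Joining peaks within 1 or 3 kb left 10 or 4 peaks at IrxA and 9 or 7 at IrxB with 500 EMPs, and 6 or 5 at IrxA and 10 or 9 at IrxB with 15000 EMPs. Joining within 3 kb raised the 500-EMP covered length to 47.5 kb at IrxA and 18.4 kb at IrxB. When 50% of both peaks had to overlap, 6.67% of 500-EMP and 7.5% of 15000-EMP cluster peaks were shared. With 50% of the peak itself, 91.1% of the 500-EMP and 10% of the 15000-EMP peaks were, and after joining within 3 kb 64.3% of the 15000-EMP peaks. In the 500-EMP list, a window of 1 kb gave a coverage of 33.6% at Irx1, 4.80% at Irx2, 5.95% at Irx3, 0% at Irx5 and 13.7% at Irx6, a window of 10 kb gave 34.5% at Irx1 and 8.19% at Irx6, and joining within 1 kb gave 64.7% at Irx2. In the 15000-EMP list Irx5 had 62.3% within 1 kb and Irx6 51.2% within 10 kb. Counting any annotated transcript start, 2 genes with 500 EMPs and 5 with 15000 EMPs had a start in a peak, and joining within 1 kb gave 1 and 6, since it closes gaps of up to 1 kb by construction. The gaps at the starts of Irx1, Irx2 and Irx4 therefore rest on the peaks as deposited, and at Irx1 and Irx2, not at Irx4, also on the outermost start. No paired analysis was possible because each group had 1 library. Without read counts or replicates, the depth behind each peak and the spread between libraries were not known here.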
